A study of Mus musculus with 16 samples.

Results

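The Polycomb group genes described here are the 10 that encode the main subunits of Polycomb repressive complexes 1 and 2 in mouse embryonic stem cells (mESCs): Ezh1, Ezh2, Eed, Suz12, Jarid2, Mtf2, Phf19, Cbx7, Rnf2 and Kdm2b. They were chosen by name, and every probe of the array whose RefSeq transcript belongs to one of them was taken. This gave 14 probes for the 10 genes, of 21154 genes that could be named and 55681 probes in all. All 14 probes passed the filter on dim probes, so no member was left out. RNA from 3 mESC lines was hybridised to 16 one-colour Agilent arrays. J1 is a wild-type male line. TKO cells lack the DNA methyltransferases Dnmt1, Dnmt3a and Dnmt3b. 3B3l cells, which the labels write 3B3-3l, lack the endogenous Dnmt3a and Dnmt3b and carry constitutively expressed exogenous Dnmt3b and Dnmt3l. Each line was grown in serum medium, with 15% fetal calf serum and LIF at 500 U/ml, or for 2 weeks in 2i medium, a serum-free N2B27 medium with the MEK inhibitor PD0325901 at 1 uM, the GSK3 inhibitor CHIR99021 at 3 uM and LIF at 1000 U/ml. The groups were J1-serum (n = 4), J1-2i (n = 3), TKO-serum (n = 2), TKO-2i (n = 3), 3B3l-serum (n = 2) and 3B3l-2i (n = 2). Feeder cells (SNLP, mitomycin-treated) were present in the J1-serum cultures alone. Nothing says that arrays of a group came from separate cultures, so the tests measure the spread between these arrays.

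Polycomb complexes keep developmental genes silent in stem cells. Polycomb repressive complex 2 (PRC2) methylates lysine 27 of histone H3 through its catalytic subunit EZH2 or EZH1, which needs EED and SUZ12 to be active. The accessory subunits JARID2, MTF2 and PHF19 help to bring PRC2 to chromatin, mostly at CpG islands. Polycomb repressive complex 1 (PRC1) ubiquitinates histone H2A through RNF2, also called RING1B. CBX7 lets the canonical form of PRC1 bind the PRC2 mark, and KDM2B brings a variant form to unmethylated CpG islands.

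DNA methylation and several of these subunits meet at CpG dinucleotides, and the lines differ in their DNA methyltransferases, so the promoters of the 4 members whose patterns by line or by medium are described first are shown. Each is the 250 bases before the first start site of the gene in RefSeq (build GRCm38.p6), written 5′ to 3′ on the strand of the gene, with each CG dinucleotide in capitals.
Ezh1: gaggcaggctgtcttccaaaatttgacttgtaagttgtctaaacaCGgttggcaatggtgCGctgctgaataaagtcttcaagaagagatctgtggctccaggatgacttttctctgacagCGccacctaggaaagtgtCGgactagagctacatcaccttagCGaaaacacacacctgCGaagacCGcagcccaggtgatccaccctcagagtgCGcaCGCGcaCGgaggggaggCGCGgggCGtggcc
Jarid2: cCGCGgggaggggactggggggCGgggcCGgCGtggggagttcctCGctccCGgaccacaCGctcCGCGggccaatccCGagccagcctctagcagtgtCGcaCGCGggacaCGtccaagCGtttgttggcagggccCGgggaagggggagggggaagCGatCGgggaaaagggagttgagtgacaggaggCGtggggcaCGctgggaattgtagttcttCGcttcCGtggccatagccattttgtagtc
Mtf2: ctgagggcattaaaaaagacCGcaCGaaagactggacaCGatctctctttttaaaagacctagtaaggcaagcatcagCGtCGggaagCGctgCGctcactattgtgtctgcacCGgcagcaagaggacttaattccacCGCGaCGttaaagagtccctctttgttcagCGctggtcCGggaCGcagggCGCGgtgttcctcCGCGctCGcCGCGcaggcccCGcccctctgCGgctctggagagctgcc
Phf19: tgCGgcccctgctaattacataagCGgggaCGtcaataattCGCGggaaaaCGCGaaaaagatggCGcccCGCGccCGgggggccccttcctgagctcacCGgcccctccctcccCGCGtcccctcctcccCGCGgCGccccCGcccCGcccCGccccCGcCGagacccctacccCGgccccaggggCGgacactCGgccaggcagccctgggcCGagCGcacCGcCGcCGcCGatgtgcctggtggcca
The Ezh1 window lies at chr11:101226464-101226713 on the minus strand and holds 14 CpG. The Jarid2 window at chr13:44730524-44730773 (plus strand) and the Mtf2 window at chr5:108065424-108065673 (plus strand) hold 23 CpG each, and the Phf19 window at chr2:34913977-34914226 (minus strand) holds 31. All 10 members had a window in the table, 15 in all because Jarid2, Mtf2 and Kdm2b have several start sites. The 15 windows held between 2 and 38 CpG with a median of 23, and the window with 2 belongs to a second Mtf2 start. Over the 32851 windows of all genes the median was 6 CpG. Methylation of these sequences was not analysed here.

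Each value below is the log2 intensity of a spot minus the log2 of the 75th percentile of its array, so 0 is a signal at that percentile. Levels of one probe are never set against those of another. That percentile ranged from 1019 to 1797 intensity units over the arrays, of whose spots 39.7% to 49.0% were well above background. Of the targeted genes, Dnmt1 was between 1.61 and 2.45 on the J1 arrays and between -1.70 and -1.42 on the TKO arrays, and Dnmt3a was well above background on every J1 array and on no TKO or 3B3l array. Dnmt1 and Dnmt3b stayed well above background on all TKO arrays, the main Dnmt3b probe at -0.70 to -0.25 there, 0.56 to 3.08 on the J1 arrays and 5.44 to 6.01 on the 3B3l arrays. The other Dnmt3b probes were lower in 3B3l than in J1 in the same medium, A_55_P2130535 at -0.89 to 0.86 against 1.93 to 4.41 and A_55_P2008874 at -3.19 to -0.94 against 0.15 to 2.62. Dnmt3l was at 4.29 to 4.48 in 3B3l-2i and at 0.69 to 0.80 in J1-2i. Where these probes lie relative to the deleted exons is not given in the sources used here. All 8 pluripotency genes examined were well above background on all 16 arrays. The J1-serum arrays stood apart in markers of other cells. The summed linear level of 16 fibroblast markers, in units of the 75th percentile, was between 45.2 and 56.6 in J1-serum and between 2.43 and 2.73 in J1-2i, and that of 8 primitive endoderm markers was between 38.7 and 48.3 in J1-serum and between 4.46 and 11.9 on the other arrays. Dcn, a fibroblast gene picked after its values were seen, was above background on all 4 J1-serum arrays and on no TKO or 3B3l array. Other markers were detected in every line: 11 of the 16 on all J1-serum arrays, 9 on all TKO-serum and 8 on all 3B3l-serum arrays. Against J1-serum, 9 of the 11 tested markers were called lower in TKO-serum and 8 in 3B3l-serum, by the rule given below. None was called higher. Tagln (0.57) and Col1a1 (-0.63) were not called in 3B3l-serum. The summed fibroblast level was between 37.4 and 38.4 in 3B3l-serum. That sum was lower in 2i in every line, at 12.8 to 13.5 in TKO-serum against 3.06 to 3.40 in TKO-2i and at 4.10 to 4.50 in 3B3l-2i, and the part of these markers in the 2i responses below was not tested. The arrays came from 3 slides: all 3B3l arrays and J1-serum replicate 1 share slide 3, and the other J1 and all TKO arrays lie on slides 1 and 2. Slide 3 was scanned on a different day from slides 1 and 2. No J1-2i array lies on slide 3, so in 2i a difference of 3B3l from J1 cannot be told apart from one of slide or scan day. With the slide as a block, that difference rests on J1-serum replicate 1.

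Most of the 10 genes changed by less than 2-fold with 2i. The response was called different from that of J1 for Ezh1 and Jarid2 in TKO and for Eed, Jarid2 and Kdm2b in 3B3l. A gene was called when the Benjamini-Hochberg adjusted p of limma, over all probes tested, was at most 0.05. In J1 cells 4 members rose (Ezh2, Eed, Mtf2 and Rnf2) and Ezh1 fell, so 5 of 10 were called where 55.0% of all tested genes were (30.1% higher and 25.0% lower). In TKO cells Suz12, Mtf2 and Rnf2 rose and Jarid2 and Phf19 fell, again 5 of 10, against 38.8% of all genes (20.8% higher and 17.9% lower). In 3B3l cells Suz12 rose and Jarid2, Phf19 and Kdm2b fell, 4 of 10 against 31.3% (15.9% higher and 15.3% lower). The median change of the members was 0.21, 0.25 and 0.08 in J1, TKO and 3B3l, beside 0.05, 0.07 and 0.00 over all genes. At a 2-fold limit none of the members was called in J1 (22.6% of all genes were), and 2 were called in TKO (15.8%) and 2 in 3B3l (13.6%), Jarid2 and Phf19 in each. The methods' t-test with Benjamini-Hochberg adjustment called 3 members in J1 and 0 in 3B3l, where it called 53.2% and 0.281% of all tested genes, and at an unadjusted p under 0.05 it passed 5 and 4, where 60.4% and 25.0% of all genes passed.

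No member was called in the same direction in all 3 lines by limma, although Mtf2 was with the slide as a block, with the replicate block and at an unadjusted p under 0.05. Jarid2 and Phf19 fell and Suz12 rose in both TKO and 3B3l and were not called in J1, and Mtf2 and Rnf2 rose in J1 and TKO. The comparisons of a line with its own serum cultures share no arrays. In a bulk sample, fewer cells of a type and less RNA per cell cannot be told apart.

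**Figure D1:**
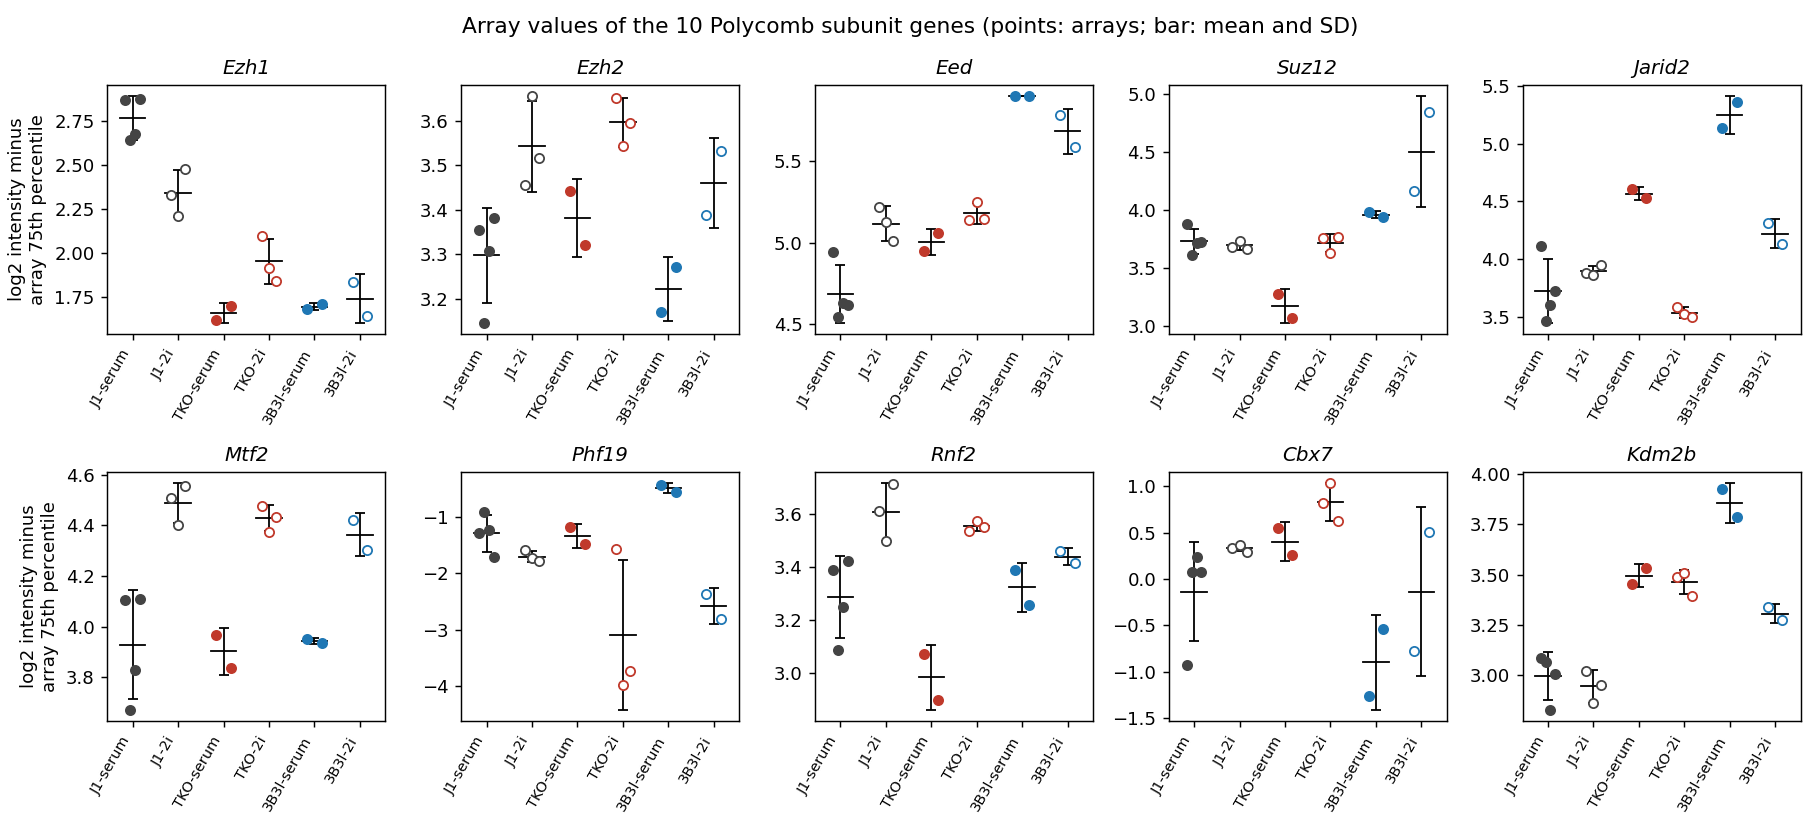
Log2 intensity minus the 75th percentile of the array for the main probe of each of the 10 genes, by group; each point is an array (filled for serum, open for 2i), and the line and bar are the mean and SD. The vertical scale differs between genes. Ezh1 was highest in the 4 J1-serum arrays, Jarid2 in the 2 3B3l-serum arrays, and Mtf2 was higher on every 2i array than on any serum array.

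**Figure D2:**
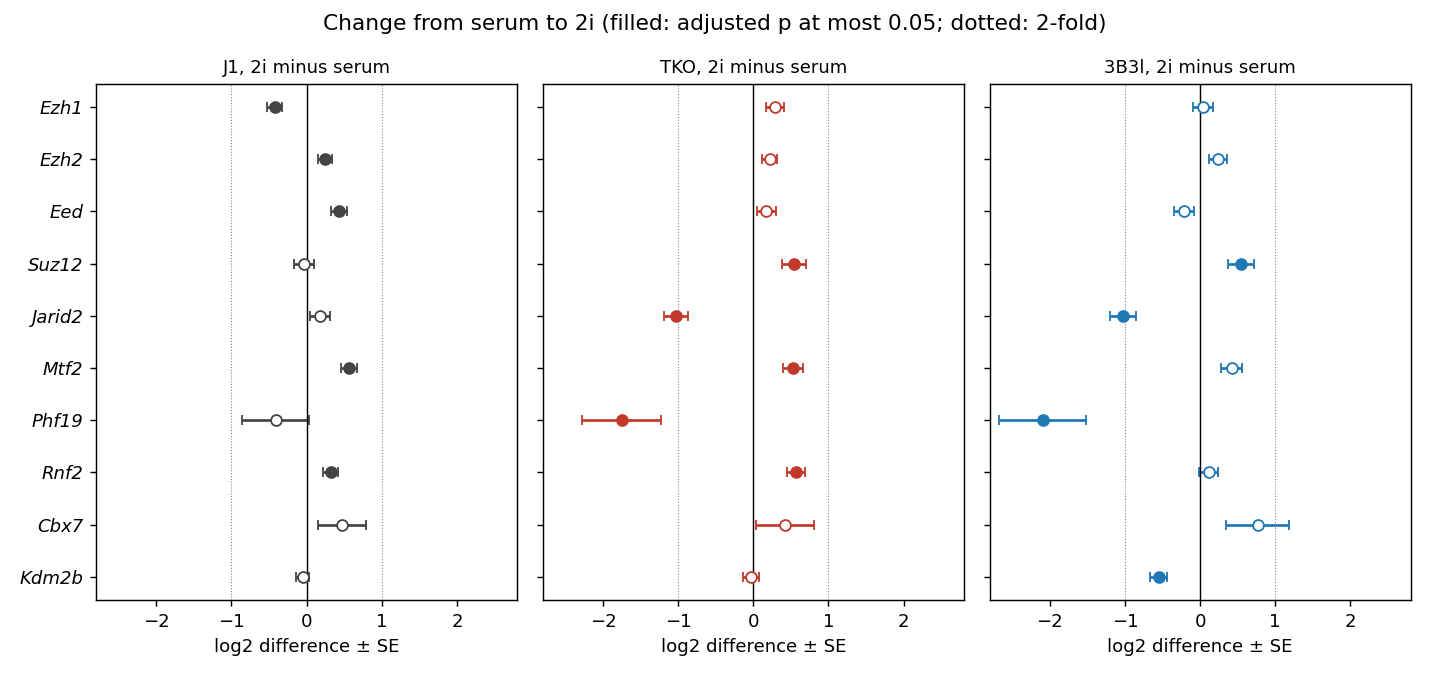
Log2 difference between 2i and serum with its SE for each gene, in J1, TKO and 3B3l; filled points have an adjusted p of at most 0.05 and dotted lines mark 2-fold. Jarid2 lies at 0.17 in J1 and at -1.03 in both TKO and 3B3l. For Phf19 in 3B3l the measured -2.09 is drawn, although its 2i spots were not well above background.

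Jarid2, the accessory subunit that helps PRC2 to bind and act on nucleosomes, responded to 2i differently in the mutant lines than in J1. In J1-serum its 4 arrays read 4.11, 3.46, 3.60 and 3.72, and in J1-2i its 3 arrays read 3.88, 3.87 and 3.95. The J1 groups overlapped, because J1-serum replicate 1 was higher than every 2i array, and the difference of 0.17 (SE 0.13, adjusted p = 0.311) was not called. Without J1-serum replicate 1 the J1 difference was 0.30 and was called (adjusted p = 0.0209), and it was 0.25 within slide 1 (adjusted p = 0.105). In TKO the serum arrays read 4.61 and 4.53 and the 2i arrays 3.58, 3.53 and 3.49. In 3B3l the serum arrays read 5.13 and 5.36 and the 2i arrays 4.31 and 4.13. Every 2i array of both mutant lines lay below the serum arrays of its line. Jarid2 fell by 1.03 in TKO (SE 0.16, adjusted p = 0.000235) and by 1.03 in 3B3l (SE 0.17, adjusted p = 0.000693), about 2.05-fold and 2.04-fold. The difference between the TKO and the J1 response was -1.21 (SE 0.21, adjusted p = 0.000904), and between the 3B3l and the J1 response -1.20 (SE 0.22, adjusted p = 0.00127).

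In serum Jarid2 was higher in both mutant lines. TKO-serum exceeded J1-serum by 0.84 (SE 0.15, adjusted p = 0.000628) and 3B3l-serum exceeded J1-serum by 1.53 (SE 0.15, adjusted p = 4.19e-06), while in 2i neither TKO (-0.36, adjusted p = 0.0855) nor 3B3l (0.32, adjusted p = 0.122) was called against J1. The TKO-2i difference was called in 8 of 29 alternatives, among them the slide as a block (-0.36, adjusted p = 0.0216), slide 1 alone (-0.40, adjusted p = 0.0395) and quantile normalisation (-0.50, adjusted p = 0.0208), and that of 3B3l-2i without J1-serum replicate 1 (adjusted p = 0.0282). With the slide as a block the 3B3l-2i difference was -0.19 (adjusted p = 0.482), the opposite direction. On slide 3 alone, 3B3l-serum exceeded the single J1-serum array by 1.14 (adjusted p = 0.0329, a comparison added after the data were seen, in which the lone J1 array is assumed to vary like the 3B3l arrays). On slide 1 alone, TKO-serum exceeded J1-serum by 0.91 (adjusted p = 0.00133). Both comparisons use the same J1-serum arrays, the ones with high fibroblast and primitive endoderm markers, and the part of those markers in the result was not tested. Within TKO and within 3B3l the fibroblast sum was also lower in 2i, as given above. Of the 11 tested fibroblast markers, 7 were called lower and 1 higher with 2i in TKO, and 6 lower and 1 higher in 3B3l. The largest falls in TKO and 3B3l were those of Tagln (-4.30 and -5.84) and Acta2 (-3.89 and -4.41), and Pdgfrb was higher (0.91 and 1.81). Their part in the fall of Jarid2 was not tested.

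Phf19, which helps to bring PRC2 to CpG islands, fell with 2i in both mutant lines, near the limit of detection. The serum arrays read -1.19 and -1.49 in TKO and -0.43 and -0.56 in 3B3l, all well above background. In TKO-2i the arrays read -1.56, -3.98 and -3.73, and only the first was well above background. In 3B3l-2i they read -2.36 and -2.81 and neither was well above background. The 2i arrays lay below the serum arrays in both lines, by little in the first TKO-2i array. In TKO the measured difference was -1.75 (SE 0.53, adjusted p = 0.0223), with 1 of 3 2i arrays well above background. This call was lost without either TKO-serum array, without TKO-2i replicate 2 (-1.31, adjusted p = 0.0811) and without TKO-2i replicate 3 (-1.43, adjusted p = 0.0779). In 3B3l the level in serum was at least 3.55-fold higher than in 2i, the bound that the background of the 2i arrays allows (adjusted p = 0.0181). The 3B3l call was lost without either 3B3l-serum array or without 3B3l-2i replicate 2, at adjusted p between 0.0627 and 0.109. In J1 the serum arrays lay between -1.71 and -0.92 and the 2i arrays between -1.78 and -1.59, with a difference of -0.41 (SE 0.44, adjusted p = 0.471). Neither the measured TKO response (-1.34 relative to J1, adjusted p = 0.186) nor the 3B3l response (-1.68, adjusted p = 0.114) was called different from the J1 response. Without TKO-2i replicate 1, the array with the highest 2i level, no TKO-2i spot was well above background, so the TKO fall then has no exact size, and the responses of both TKO (adjusted p = 0.000285) and 3B3l (adjusted p = 0.00113) were called different from that of J1. Slide 1 holds only these dim TKO-2i spots, and there too the TKO response was called different (adjusted p = 0.00303). With normexp background correction the TKO fall was -0.94 (adjusted p = 0.0353). TKO-2i against J1-2i gave a measured -1.39 (adjusted p = 0.0516), which was called in 7 of 28 alternatives, among them the slide as a block (adjusted p = 0.0245) and slide 1 alone (adjusted p = 0.00101). In the single pair of arrays on slide 2, which holds the TKO-2i array above background, that difference was 0.17, so the low TKO-2i level was seen on slide 1 alone.

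Mtf2, the accessory subunit also known as PCL2, was higher in 2i than in serum on all arrays of each line. The serum arrays read 4.10, 3.67, 3.83 and 4.11 in J1, 3.97 and 3.84 in TKO, and 3.95 and 3.93 in 3B3l. The 2i arrays read 4.51, 4.40 and 4.56 in J1, 4.48, 4.38 and 4.43 in TKO, and 4.42 and 4.30 in 3B3l. The lowest 2i array of any line was above the highest serum array of any line. Mtf2 rose by 0.56 in J1 (SE 0.11, adjusted p = 0.000916) and by 0.53 in TKO (SE 0.13, adjusted p = 0.00769; 0.46 and adjusted p = 0.0597 without TKO-serum replicate 2). In 3B3l the difference was 0.42 (SE 0.14), with an adjusted p of 0.0501, and it was called in 8 of 29 alternatives, among them the slide as a block (adjusted p = 0.0357), the replicate block (adjusted p = 0.0408) and array median scaling (0.55, adjusted p = 0.0341). A second Mtf2 probe, for the RefSeq transcript NM_001253877, gave 1.21 in J1 (SE 0.43, adjusted p = 0.0347), 0.44 in TKO (adjusted p = 0.558) and 1.53 in 3B3l (adjusted p = 0.0678), the last 2 not called. With the mean over the probes of the gene, the J1 difference was 0.88 (adjusted p = 0.00266) and the 3B3l difference 0.98 (adjusted p = 0.0139). By that mean the TKO difference was 0.48 and was not called (adjusted p = 0.142). Against J1, Mtf2 was not called in either mutant line, but in 3B3l-2i it was lower under quantile normalisation (-0.40, adjusted p = 0.0326) and in the deposited table (-0.40, adjusted p = 0.0373).

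Ezh1, the less active paralogue of Ezh2, was highest in J1-serum. The arrays read 2.87, 2.64, 2.68 and 2.87 in J1-serum and 2.33, 2.21 and 2.47 in J1-2i. In TKO they read 1.62 and 1.70 in serum and 2.10, 1.92 and 1.84 in 2i, and in 3B3l 1.68 and 1.71 in serum and 1.84 and 1.65 in 2i. Every J1 array, in either medium, lay above every TKO and 3B3l array. Ezh1 fell by 0.43 with 2i in J1 (SE 0.10, adjusted p = 0.00375), with a difference of -0.43 in the single pair of arrays on slide 2 and of -0.37 within slide 1, where it was not called (adjusted p = 0.05004). Under array median scaling the J1 difference was -0.26 and was not called (adjusted p = 0.0848), and with normexp background correction it was -0.28 (adjusted p = 0.0268). It was not called in TKO (0.29, adjusted p = 0.0893) or in 3B3l (0.05, adjusted p = 0.890). The TKO and J1 responses differed by 0.72 (SE 0.16, adjusted p = 0.00494; 0.59 and adjusted p = 0.0513 within slide 1), and the 3B3l and J1 responses by 0.47 (adjusted p = 0.0561).

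Against J1 in the same medium Ezh1 was lower in both mutant lines. In serum the differences were -1.10 for TKO (SE 0.12, adjusted p = 8.62e-06) and -1.07 for 3B3l (SE 0.12, adjusted p = 9.40e-06), with -1.17 for 3B3l within slide 3. In 2i the differences were -0.38 for TKO (SE 0.11, adjusted p = 0.0228) and -0.60 for 3B3l (SE 0.12, adjusted p = 0.00222). The call for TKO in 2i was lost without J1-2i replicate 1 (-0.39), J1-2i replicate 3 (-0.32), TKO-2i replicate 2 (-0.37) or TKO-2i replicate 3 (-0.33), at adjusted p between 0.0584 and 0.102. It was -0.52 within slide 1 (adjusted p = 0.0265) and -0.11 in the single pair of arrays on slide 2. Of the other Ezh1 probes, A_55_P2155942 gave -0.83 for TKO-serum, -1.16 for 3B3l-serum, -0.29 for TKO-2i (not called, adjusted p = 0.149) and -0.60 for 3B3l-2i. A_55_P2017086 gave -1.01 for TKO in serum and -0.58 in 2i. This probe was not well above background on any 3B3l array, so its level in J1 was at least 1.98-fold higher in serum and at least 1.30-fold higher in 2i. Fibroblast and primitive endoderm markers were highest in J1-serum, as Ezh1 was, and their part in the result was not tested. In 2i the summed fibroblast level was 2.43 to 2.73 in J1, 3.06 to 3.40 in TKO and 4.10 to 4.50 in 3B3l. Of the 16 fibroblast markers, 4, 7 and 6 were well above background on all 2i arrays of J1, TKO and 3B3l. The primitive endoderm sum in 2i was 8.24 to 10.8 in J1, 10.3 to 11.9 in TKO and 4.46 to 4.86 in 3B3l. Of its 8 markers, 6 were well above background on no J1-2i array, and 6 on no 3B3l-2i array. Against J1-2i, Lama1 was called lower in 3B3l-2i (-1.25), and Gata4 (1.48), Sox7 (0.61) and Pdgfra (0.65) were called higher. The part of these markers in the Ezh1 difference was not tested.

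**Figure D3:**
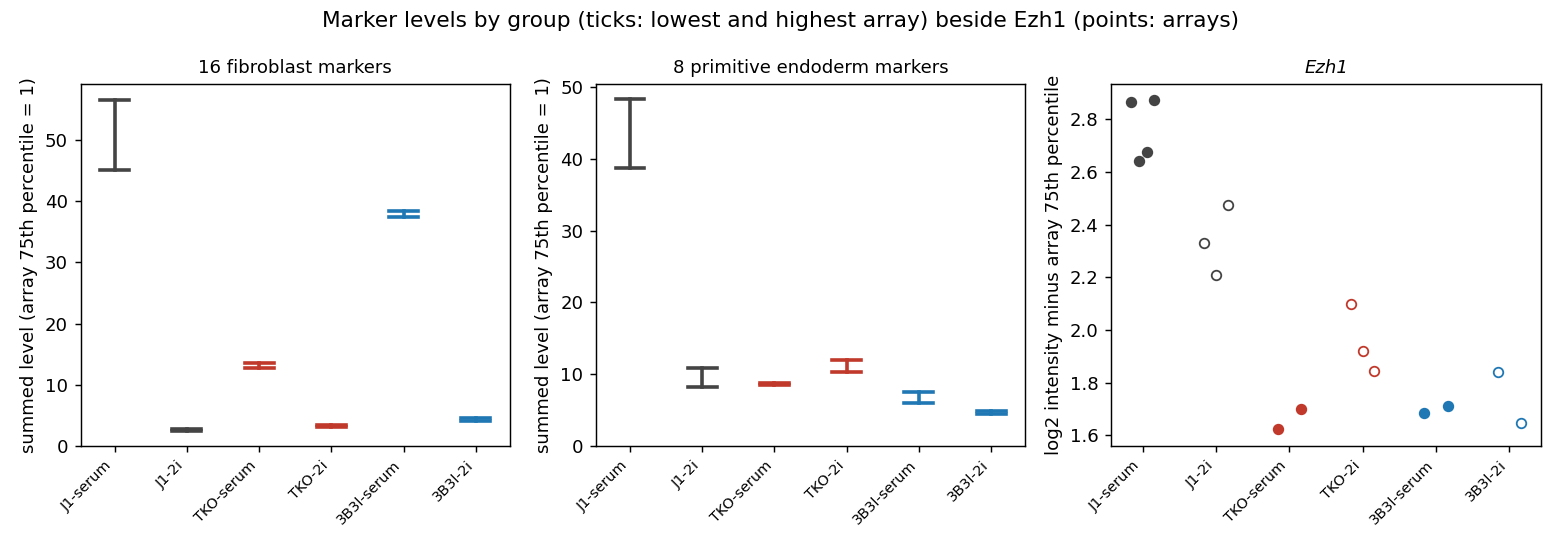
Summed linear level of 16 fibroblast markers (left) and 8 primitive endoderm markers (middle) in each group, with ticks at the lowest and highest array, and log2 values of Ezh1 by array (right). Marker levels were highest in J1-serum, at 45.2 to 56.6 and 38.7 to 48.3; in 2i the fibroblast sum was at most 4.50 in every line and the endoderm sum was 8.24 to 10.8 in J1, 10.3 to 11.9 in TKO and 4.46 to 4.86 in 3B3l.

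Ezh2, the main H3K27 methyltransferase of proliferating cells, differed little between lines. Its arrays lay between 3.15 and 3.38 in J1-serum and between 3.46 and 3.66 in J1-2i. They lay between 3.32 and 3.44 in TKO-serum, 3.54 and 3.65 in TKO-2i, 3.17 and 3.27 in 3B3l-serum, and 3.39 and 3.53 in 3B3l-2i. Serum and 2i arrays did not overlap in any line. The differences were 0.24, 0.22 and 0.24 in J1, TKO and 3B3l, and the test passed in J1 (SE 0.088, adjusted p = 0.0365) and missed in TKO (adjusted p = 0.150) and 3B3l (adjusted p = 0.170). The J1 call was lost within slide 1 (0.14, adjusted p = 0.341) and without J1-2i replicate 2 (0.19), J1-2i replicate 3 (0.26), J1-serum replicate 2 (0.19) or J1-serum replicate 3 (0.25), while array median scaling gave 0.41 (adjusted p = 0.00680). It was called in 18 of 29 alternatives. Against J1, Ezh2 was not called in either line in either medium, with differences between -0.08 and 0.08. Quantile normalisation called it lower in 3B3l in serum (-0.30, adjusted p = 0.0263) and in 2i (-0.30, adjusted p = 0.0422), as did the deposited table (adjusted p = 0.0218 and 0.0428).

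Eed, which binds the H3K27me3 mark and stimulates the enzyme, was highest in 3B3l cells. The arrays read 4.94, 4.55, 4.63 and 4.62 in J1-serum and 5.22, 5.13 and 5.01 in J1-2i. Those of 3B3l-serum read 5.90 and 5.90, both saturated, and those of 3B3l-2i 5.78 and 5.59. All 3B3l arrays lay above all other arrays, and J1-2i lay above J1-serum. Eed rose by 0.43 with 2i in J1 (SE 0.10, adjusted p = 0.00406), and by 0.49 within slide 1 (adjusted p = 0.0186). In TKO it read 4.95 and 5.06 in serum and 5.14, 5.25 and 5.15 in 2i, a difference of 0.17 (adjusted p = 0.322). In serum Eed was at least 2.32-fold higher in 3B3l than in J1 (adjusted p = 3.99e-06). On slide 3 alone, against the lone J1-serum array and with the same assumption, the measured difference was 0.95 (adjusted p = 0.0426). In 2i its level in 3B3l exceeded that in J1 by 0.57 (SE 0.13, adjusted p = 0.00361), which fell to 0.22 with the slide as a block (adjusted p = 0.379) and to 0.31 under quantile normalisation (adjusted p = 0.0802). The measured 3B3l response was -0.21 (adjusted p = 0.320) and differed from that of J1 by -0.65 (SE 0.17, adjusted p = 0.0143; -0.55 and adjusted p = 0.0621 without 3B3l-2i replicate 2). Saturation in 3B3l-serum bounds both of these values from one side.

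Suz12, which holds the catalytic core of PRC2 together, responded to 2i in the mutant lines. The arrays read 3.27 and 3.06 in TKO-serum and 3.76, 3.63 and 3.76 in TKO-2i. They read 3.98 and 3.94 in 3B3l-serum and 4.17 and 4.84 in 3B3l-2i. The TKO-serum arrays were the lowest of all 16, and the 3B3l-2i arrays were the highest but differed from each other by more than their distance from serum. Suz12 rose by 0.55 in TKO (SE 0.16, adjusted p = 0.0202; 0.44 and adjusted p = 0.138 without TKO-serum replicate 2) and by 0.54 in 3B3l (SE 0.18, adjusted p = 0.0396). The TKO call was also lost with the replicate block (adjusted p = 0.0617), with normexp background correction (0.43, adjusted p = 0.0594) and without TKO-2i replicate 1 or 3. The 3B3l call held in 13 of 29 alternatives and was lost with the replicate block (adjusted p = 0.0918). Its value was 0.21 without 3B3l-2i replicate 2 (adjusted p = 0.391) and 0.88 without 3B3l-2i replicate 1 (adjusted p = 0.000754). J1-serum arrays ranged from 3.61 to 3.87 and J1-2i arrays from 3.66 to 3.73, so the J1 groups overlapped (-0.04, adjusted p = 0.846). The difference between the TKO and J1 responses was 0.58 (adjusted p = 0.0607), and that between the 3B3l and J1 responses was also 0.58 (adjusted p = 0.0749).

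Among the PRC1 genes, Rnf2, its E3 ubiquitin ligase, had arrays at 3.39, 3.09, 3.25 and 3.42 in J1-serum and 3.61, 3.50 and 3.71 in J1-2i. In TKO they read 3.07 and 2.90 in serum and 3.54, 3.57 and 3.55 in 2i. The 2i arrays were above the serum arrays in both lines. Rnf2 rose by 0.32 in J1 (SE 0.098, adjusted p = 0.0158; 0.27 and adjusted p = 0.0747 without J1-2i replicate 3, and 0.33 and adjusted p = 0.0741 within slide 1) and by 0.57 in TKO (SE 0.12, adjusted p = 0.00213). Array median scaling gave 0.48 in J1 (adjusted p = 0.00673). In 3B3l it read 3.39 and 3.26 in serum and 3.46 and 3.42 in 2i, a difference of 0.12 (adjusted p = 0.622).

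Kdm2b, the CXXC-domain protein of variant PRC1, was lowest in J1 cells. Its main probe read 3.09, 3.06, 2.83 and 3.01 in J1-serum and 3.02, 2.86 and 2.95 in J1-2i. In TKO it read 3.45 and 3.53 in serum and 3.49, 3.51 and 3.40 in 2i, and in 3B3l 3.93 and 3.79 in serum and 3.34 and 3.27 in 2i. Every J1 array lay below every TKO and 3B3l array. Kdm2b was higher than in J1 by 0.50 in TKO-serum (SE 0.098, adjusted p = 0.00133) and by 0.52 in TKO-2i (SE 0.092, adjusted p = 0.00147), and the second probe gave 0.70 and 0.52, both called. In 3B3l the main probe gave 0.86 in serum (adjusted p = 1.44e-05; 0.77 and adjusted p = 0.0649 within slide 3) and 0.36 in 2i (adjusted p = 0.0153; 0.24 and adjusted p = 0.351 with the slide as a block, and 0.17 and adjusted p = 0.237 under quantile normalisation), while the second probe gave 0.28 and 0.26, neither called. With 2i the main probe fell by 0.55 in 3B3l (SE 0.11, adjusted p = 0.00289; adjusted p = 0.111 within slide 3), which differed from J1 by -0.50 (SE 0.14, adjusted p = 0.0202; adjusted p between 0.0514 and 0.0847 without 3B3l-serum replicate 1, 3B3l-2i replicate 2 or J1-2i replicate 1). The second Kdm2b probe gave -0.00 for the same fall (SE 0.13, adjusted p = 0.990), so the probes disagree and the fall is uncertain.

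Cbx7, the main chromodomain subunit of canonical PRC1 in mESCs, was called in none of the 9 comparisons by limma, nor was its unadjusted p under 0.05 in any. Its arrays read -0.93, 0.08, 0.23 and 0.08 in J1-serum, 0.34, 0.36 and 0.30 in J1-2i, 0.56 and 0.25 in TKO-serum, and 0.82, 1.04 and 0.63 in TKO-2i. In 3B3l they read -1.26 and -0.54 in serum and -0.78 and 0.51 in 2i. J1-serum replicate 1 and 3 of the 4 3B3l arrays, all on slide 3, were the lowest of the 16. TKO-2i exceeded J1-2i by 0.50 (adjusted p = 0.336), which was called in 1 of 29 alternatives, the fit of the groups compared alone (adjusted p = 0.0273). Without 3B3l-2i replicate 1 the 3B3l response was 1.41 and was called (adjusted p = 0.0326). Leaving out that J1-serum array gave a difference of -1.03 between 3B3l-serum and J1-serum (adjusted p = 0.0169), and within slide 3 the difference was 0.03 (adjusted p = 0.976).

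**Figure D4:**
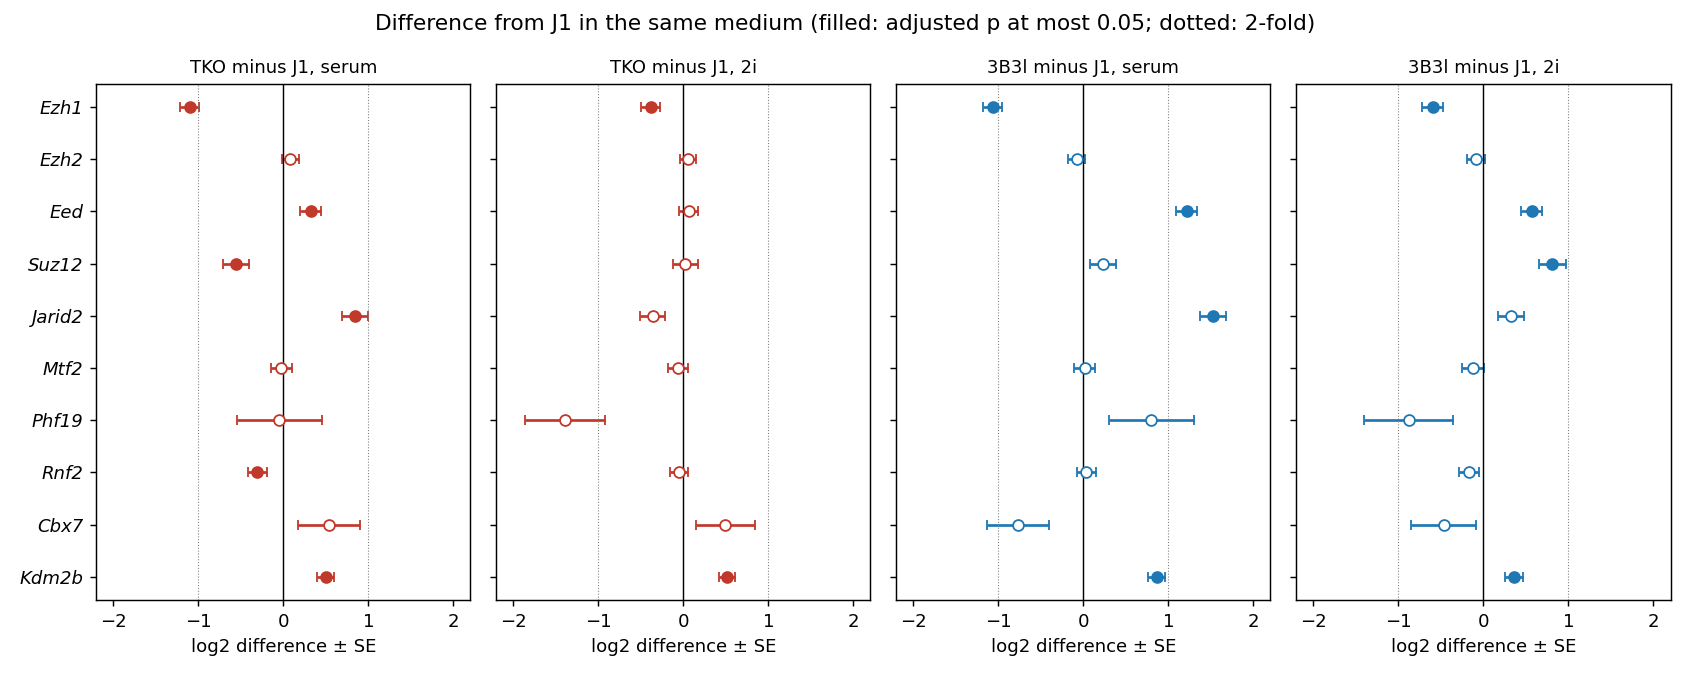
Log2 difference of TKO and 3B3l from J1 in the same medium, with its SE, for each gene; filled points have an adjusted p of at most 0.05 and dotted lines mark 2-fold. Ezh1 lies below 0 and Kdm2b above 0 in all 4 panels, while Jarid2 lies at 0.84 and 1.53 in serum and at -0.36 and 0.32 in 2i.

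Set against J1 in serum, 6 of 10 members were called in TKO (45.8% of all genes) and 4 in 3B3l (52.6%). In TKO-serum Eed (0.32), Jarid2 and Kdm2b were higher and Ezh1, Suz12 (-0.56) and Rnf2 (-0.30) lower; the calls of Eed (adjusted p = 0.0488) and Rnf2 (adjusted p = 0.0458) held in 9 and 8 of 29 alternatives and were lost without either TKO-serum array, with the replicate block and within slide 1, and that of Suz12 without TKO-serum replicate 2 (-0.45, adjusted p = 0.102). In 3B3l-serum Eed, Jarid2 and Kdm2b were higher and Ezh1 lower. In 2i the members called were Ezh1 and Kdm2b in TKO, 2 of 10 against 26.4% of all genes (4 with the slide as a block, which adds Jarid2 and Phf19), and Ezh1, Eed, Suz12 (0.81, adjusted p = 0.00187; 0.62 and adjusted p = 0.135 with the slide as a block, and 0.47 and adjusted p = 0.0184 without 3B3l-2i replicate 2) and Kdm2b in 3B3l, 4 of 10 against 43.7%. TKO and 3B3l share the J1 arrays in these comparisons. At a 2-fold limit 1 of 10 was called in TKO-serum (Ezh1, with 16.5% of all genes), 3 in 3B3l-serum (Ezh1, Eed and Jarid2, with 19.3%), 0 in TKO-2i (7.35%) and 0 in 3B3l-2i (14.4%). Of the differences between responses, 2 of 10 were called for TKO minus J1 (30.4% of all genes) and 3 of 10 for 3B3l minus J1 (31.9%). At least 2-fold were 1 of 10 in each, Jarid2, beside 15.3% and 17.2% of all genes.

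In the order of the 6 group means, few neighbours differed. Of the 5 pairs of neighbours, 2 were called for Ezh1, Eed, Suz12 and Kdm2b, 1 for Jarid2 and Rnf2, and 0 for Ezh2, Mtf2, Phf19 and Cbx7. Ezh1 ran from J1-serum through J1-2i to TKO-2i with both steps called, and the 3 groups below TKO-2i were not told apart from their neighbours. Across the 16 arrays, which hold few independent cultures and 6 groups, the members most alike were Mtf2 and Rnf2 (Pearson r = 0.88) and Ezh2 and Mtf2 (r = 0.82), and the most opposed were Ezh1 and Kdm2b (r = -0.77) and Ezh1 and Eed (r = -0.72). Among all other genes the profile most like that of Ezh1 was Trim37 (r = 0.97), and it was Zic1 for Jarid2 (r = 0.97), Zfp329 for Mtf2 (r = 0.97), Car14 for Phf19 (r = 0.97), Lasp1 for Eed (r = 0.97), Capns1 for Suz12 (r = 0.94), Pknox2 for Kdm2b (r = 0.95), Cip2a for Cbx7 (r = 0.94), Nck2 for Rnf2 (r = 0.93) and Sp3 for Ezh2 (r = 0.91). These are the largest values among many genes and are given as a description.

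Several PRC1 genes outside the 10 members changed by more than 2-fold with 2i in every line. Of 24 further PRC1 genes 21 were tested, and 10 rose and 5 fell in J1, 6 rose and 5 fell in TKO, and 2 rose and 5 fell in 3B3l, where 55.0%, 38.8% and 31.3% of all tested genes were called in either direction. The median differences were 0.37, 0.00 and 0.01. Bmi1, a PCGF subunit of canonical PRC1, rose by 2.21, 1.16 and 2.00 in the responses of J1, TKO and 3B3l. Pcgf5, a subunit of variant PRC1, fell by 1.86, 1.20 and 1.09, and the polyhomeotic gene Phc1 fell by 1.27, 1.42 and 1.11. The 9 differences had an adjusted p of at most 0.000484 and an SE between 0.088 and 0.18.

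Bcor, a corepressor of variant PRC1, rose by 1.04 in J1 (SE 0.12) and fell by 0.66 in TKO (SE 0.14) and 1.06 in 3B3l (SE 0.15), and the differences from the J1 response were -1.71 (adjusted p = 2.45e-05) and -2.10 (adjusted p = 6.12e-06). In serum Bcor was higher than in J1 by 2.01 in TKO and 1.48 in 3B3l. Scmh1, a homologue of fly Sex comb on midleg, fell by 0.62 in J1 and by 2.09 in TKO (SE 0.22, adjusted p = 9.88e-06) and was well above background on 2 of 2 3B3l-serum and none of the 3B3l-2i arrays. Yaf2, a subunit of variant PRC1, fell by 1.21 in J1 and 0.79 in 3B3l. Wdr5, whose product also serves in histone methyltransferase complexes, rose by 1.05, 0.97 and 0.82 in J1, TKO and 3B3l. Phc3, a paralogue of Phc1, rose by 1.18 in TKO. Against J1, L3mbtl2 was higher in serum by 1.39 in TKO and 1.05 in 3B3l, Usp7 was higher by 1.10 in 3B3l-serum, and Pcgf1 and Pcgf2 were higher by 1.33 and 1.66 in 3B3l-2i. In serum, TKO differed from J1 in Bmi1 (1.25), Scmh1 (1.45), Pcgf5 (-1.09) and Phc3 (-1.19).

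**Figure D5:**
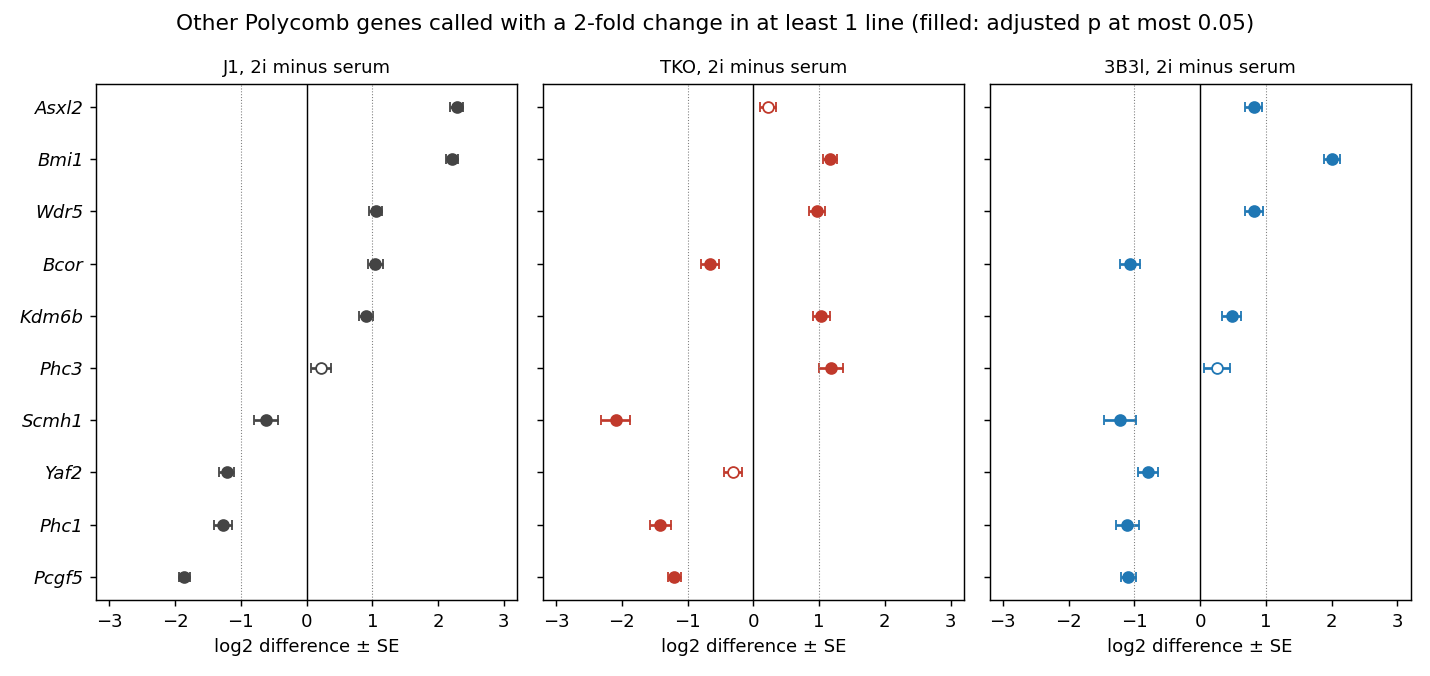
Log2 difference between 2i and serum with its SE in J1, TKO and 3B3l for the 10 other Polycomb genes, of 33 tested, called with at least a 2-fold change in 1 line or more; filled points have an adjusted p of at most 0.05 and dotted lines mark 2-fold. Bmi1 lies above 1 and Pcgf5 and Phc1 below -1 in every line, and Bcor changes side between J1 and the other lines. For Scmh1 in 3B3l the measured difference is drawn, although its 2i spots were not well above background.

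Of 7 further PRC2 genes 6 were tested. With 2i Epop rose (0.41) and Phf1 fell (-0.70, with 2 of 3 2i arrays well above background) in J1 and Aebp2 rose (0.70) in 3B3l. None was called in TKO by limma, and 0 had an unadjusted p under 0.05, where the methods' t-test had 2. Epop, whose product associates with PRC2 in mESCs, was higher than in J1 by 1.43 in TKO-serum (SE 0.18), 1.84 in 3B3l-serum (SE 0.18) and 1.29 in 3B3l-2i (SE 0.19). Phf1, the third Polycomb-like gene beside Mtf2 and Phf19, was detected above background on all 4 J1-serum arrays but on no 3B3l-serum array. Of 6 genes that remove Polycomb marks, 4 rose and 1 fell in J1, 1 rose and 1 fell in TKO, and 2 rose and 2 fell in 3B3l, again beside 55.0%, 38.8% and 31.3% of all tested genes. Asxl2, a partner of the H2A deubiquitinase BAP1, rose by 2.28 in J1 (SE 0.10) and by 0.81 in 3B3l (SE 0.13), and in serum it was higher than in J1 by 1.91 in TKO and 1.51 in 3B3l. The H3K27 demethylase gene Kdm6b rose by 1.03 in TKO (SE 0.13), 0.91 in J1 and 0.48 in 3B3l.

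Of 20 developmental genes known as Polycomb targets in mESCs 16 were tested, and 7 rose and 6 fell in J1, 5 rose and 4 fell in TKO, and 5 rose and 5 fell in 3B3l, beside the same 55.0%, 38.8% and 31.3% of all tested genes. Tbx3 rose by 2.35, 2.02 and 1.44 and Cdkn2a by 1.59, 1.56 and 1.10 in J1, TKO and 3B3l, and Hoxc13 by 2.14 in J1 and 2.08 in TKO. In 3B3l Hoxc13 also rose (adjusted p = 1.50e-08), with 2 of 2 2i arrays and 0 of 2 serum arrays well above background. Gata6, Foxa2 and Gata4 were not well above background on any J1-2i array, so their level in J1-serum was at least 49.4-fold, 8.15-fold and 12.1-fold higher, and Sox17, above background on 1 of 3 J1-2i arrays, differed by -4.01. In TKO and 3B3l Gata6 and Sox17 also fell and Gata4 and Foxa2 were not called. These 4 are also among the primitive endoderm markers that were high in J1-serum. All 8 of those markers and all 11 tested fibroblast markers, of 16 listed, fell in J1, where 25.0% of all tested genes were lower. The 8 and the 11 were well above background on every J1-serum array, which alone passes the filter on dim probes. These counts therefore favour genes that are high in J1-serum. Of the 8 pluripotency genes 4 rose and 1 fell in J1, with Esrrb at 1.07 and Utf1 at -1.53.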

How the data were processed

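The deposited files are 16 one-colour Agilent scanner outputs, made with Feature Extraction 11.5.1.1 per the file headers, and a table of the authors' normalised log2 values, used as an alternative. The deposited scanner intensity (processed signal) was background-subtracted by the authors' software. Here it was taken to log2, and the log2 of the 75th percentile of each array was subtracted. Control spots and outlier spots were left out, which leaves a missing value on some arrays for 888 tested probes. Tested were the 27126 probes that at least 1 group had well above background on all its arrays. limma 3.58.1 (R 4.3.3) fitted the 6 groups on all 16 arrays together, with Benjamini-Hochberg adjustment over all tested probes, and a call is an adjusted p of at most 0.05. A gene is represented by its probe with the highest mean. RefSeq transcripts were named through the GRCm38.p6 gene table, which gave 21154 genes. Named beyond the members were the listed Polycomb genes called with at least 2-fold in a 2i response or against J1, up to 4 genes of each marker or target list by size of the J1 response, and the genes most correlated with a member. Aebp2, Dcn, Pdgfrb, Pdgfra, Lama1, Tbx3, Cdkn2a and Hoxc13 fall outside this rule and were named after their values were seen. Of the listed PRC1 genes, 1 is left out of the counts and not reported here. The members and lists were chosen with earlier results of these data known. Alternatives were other scalings, normexp background (offset 50), other filters, slide or replicate number as a block, single slides, the mean over probes, the methods' t-test (the plain unpaired test that the study names for single array genes, where its differential expression used limma), here also with Benjamini-Hochberg adjustment, and each array left out; the fit on slide 3 alone was added after the data were seen. Of the 16 columns of the deposited values, 13 matched another array of the same group best. The number of arrays limits the precision. The fit was tested on simulated data.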

Additional observations from a re-analysis of the deposited data

Results flagged for a closer look

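Jarid2 responded to 2i differently in J1 than in TKO, with a difference between the responses of -1.21, and than in 3B3l, with a difference of -1.20. Ezh1 responded differently in TKO than in J1 by 0.72. In 3B3l the response differed from that of J1 by -0.65 for Eed, whose 3B3l-serum spots were saturated, and by -0.50 for the main probe of Kdm2b, whose second probe gave -0.01. In these 5 results the interaction term of limma passed its threshold. For Cbx7 in J1-serum the array of replicate 1 read -0.93, far below the other 3, on the slide that also holds the 3B3l arrays. At the level of Dixon's test used here, chance marks about 1 in 20 such groups of 4.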

How the results depend on the processing

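No member's difference changed sign from a called value under any alternative. Over all settings, 2285 single values stayed on the same side of the threshold, 61 passed it only under the alternative and 125 lost it, and the cause was not tested. With a 2-fold limit the members called were 0 in J1, 2 in TKO and 2 in 3B3l for the 2i responses, 1 for TKO against J1 in serum, 0 for TKO and 0 for 3B3l against J1 in 2i, and 1 for each difference of responses. TKO against J1 in 2i (2 members) had 4 under array median scaling, quantile normalisation, the slide as a block, slide 1 alone, the groups compared alone and the methods' t-test unadjusted, and 1 with no filter on dim probes. The methods' t-test with adjustment gave 3 for the J1 response and 0 for the 3B3l response, where it called 53.2% and 0.281% of all tested genes. It gave 3 for TKO against J1 in serum and 2 for 3B3l against J1 in 2i, whose shares of all genes under this test were not computed. The J1 response had 2 within slide 1, the 3B3l response 2 within slide 3 or in the groups compared alone, 3B3l against J1 in 2i had 1 with the slide as a block, and the 3B3l minus J1 difference 5 after quantile normalisation. With single arrays left out, the members called ranged from 3 (J1-2i replicate 3) to 6 in J1, 2 (TKO-serum replicate 2) to 5 in TKO, 2 (3B3l-2i replicate 2) to 5 in 3B3l, 3 (TKO-serum replicate 2) to 5 for TKO and 4 to 5 for 3B3l against J1 in serum, 1 (J1-2i replicate 3) to 3 for TKO and 3 to 5 for 3B3l against J1 in 2i, and 2 to 3 and 2 to 4 for the differences. Deviations of same-numbered arrays correlated at 0.29 for the 3B3l response, a single value because each 3B3l group has 2 arrays. They correlated at 0.20 and 0.15 for 3B3l against J1 in serum and between -0.13 and 0.08 in the other comparisons. The arrays were not paired in the main fit. With the replicate block the members called were 4, 4 and 4 for the responses of J1, TKO and 3B3l, 4 and 4 for TKO and 3B3l against J1 in serum, 2 and 3 in 2i, and 2 and 3 for the differences. The median of all probes moved from 0.04 to 0.21 for the J1 response under array median scaling and from 0.15 to -0.00 for 3B3l against J1 in serum in the deposited table. Groups of 2 arrays and dim or saturated spots (Phf19, Eed) limit what these arrays resolve.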
